A study of Mus musculus with 4 samples.

Results

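The E2F and DP transcription factors are a family of DNA-binding proteins that act at the end of the RB pathway in G1-phase, and their transcripts were compared here between 2 culture conditions of mouse embryonic stem cells (ESCs). The members were chosen by gene symbol, as E2f1 to E2f8, Tfdp1 and Tfdp2, and all 10 were found among the 14533 genes of the table. Serum ESCs had been kept in serum medium with LIF and 2i ESCs in serum-free medium with LIF, the MEK inhibitor PD0325901 and the GSK3 inhibitor CHIR99021, each for over 20 days. The cells had been sorted for G1-phase, which the sample labels call late and the series text calls early, and RNA of 2 libraries per condition was sequenced. For such sorts the study used ESCs with the FUCCI reporters, fluorescent fragments of CDT1 and GEMININ that mark cell-cycle phases, driven by a CAG promoter. The labels name no cell line or genetic change for these libraries. The series text calls the replicates biological, without saying how they were kept apart.

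The libraries held from 18939401 to 26570098 whole reads, and the 10 genes with most reads took from 17.5% (serum replicate 2) to 50.6% (serum replicate 1) of them. Of 10 ESC markers 9 were measured, with at least 8452 normalized counts of Pou5f1 and 9449 of Nanog in every library. The lowest value of the 9 was 128 for Utf1 in 2i replicate 2. Lin28a was the highest in fold change, at 2.70 on the log2 scale, with 2656 and 5038 normalized counts in serum against 743 and 428 in 2i ESCs (limma, adjusted p-value 0.753, unadjusted 0.00196), and Klf4 the lowest at -0.75. Other cell types were looked for by their markers. Summed over the 4 of 7 primitive endoderm markers measured, levels were 72.0 and 109 normalized counts in serum against 332 and 256 in 2i ESCs. Over the 3 of 8 fibroblast markers measured they were 271 and 235 in serum and 289 and 200.8 in 2i ESCs. Gata4 and Sox17, which define primitive endoderm, lay between 7.004 and 169 normalized counts. The part of such cells in the values below was not tested, and fewer cells in a state and less RNA per cell cannot be told apart in bulk RNA.

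In G1-phase the RB family proteins hold E2Fs back at the promoters of genes needed for DNA synthesis, and phosphorylation of RB by cyclin-CDK complexes releases them. E2F1, E2F2 and E2F3 are the activators, which drive those genes once free of RB. E2F4 and E2F5 act mainly as repressors together with the RB relatives P107 and P130, and E2F6 represses without binding RB proteins, as a partner of Polycomb proteins. All of these bind DNA as a pair with a DP protein, encoded by Tfdp1 or Tfdp2. E2F7 and E2F8, the atypical members, bind DNA without DP, are themselves E2F targets and shut E2F target genes down later in the cycle.

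Because E2F genes are in part regulated by E2Fs, their promoters were read first. RefSeq start-site windows (GRCm38.p6, 250 bases before to 50 after a start) were held for 8 of the 10 genes, in 12 windows. E2f4 and E2f5 had no entry. An E2F octamer (TTTCCCGC, TTTCGCGC, TTTGGCGC or TTTGCCGC, on either strand) stood in windows of 4 of these 8 genes, namely E2f2, E2f3, E2f7 and Tfdp1, against 2.61% of all 27025 genes with a window. It stood in 5 of the 12 windows, of which the Tfdp1 pair overlap and hold the same match, and in 2.26% of all 32851 windows. A shorter heptamer (any of these words without its first T, and so contained in every octamer) was also present in E2f8, so that 5 of 8 genes had a match, against 10.9% of all genes. The CHR word of cell-cycle promoters (TTTGAA or TTCGAA, on either strand) stood in 1 window each of E2f2, E2f3 and E2f8, so in 3 of 12 windows, against 19.2% of all windows. In E2f2 this was not the window with the octamer but another, whose RefSeq start lies 8388 bases inside the gene by GENCODE vM1. The windows of E2f1, E2f6 and Tfdp2 held none of these words. The RefSeq start of the only E2f1 window lies 466 bases inside the gene as annotated by GENCODE vM1, so that the window does not cover the annotated start, and the RefSeq starts of the Tfdp2 windows lie 62430 and 62973 bases inside that gene. A match describes letters in a window and is not a binding site.

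The matching stretches are shown because they belong to 5 genes with higher levels in both serum libraries. Levels were also higher in both serum libraries for E2f4, which had no window, and for Tfdp2, whose windows held none of these words. Capitals mark the E2F octamers, E2F heptamers and CHR words. The E2f2 stretch (chr4:136172295-136172323, plus strand) runs from position 22 to 50 after the RefSeq start, which is at position -120 relative to the GENCODE start. The E2f3 stretch (chr13:29986038-29986103, minus strand) runs from position -40 to 26 around its RefSeq start, which is at position -395 relative to the GENCODE start. That of E2f7 (chr10:110745209-110745354, plus strand) runs from position -230 to -85 relative to the start and holds 1 octamer and 2 further heptamers. The E2f8 stretch (chr7:48881597-48881716, minus strand) runs from position -120 to -1, with a heptamer at its left and a CHR word at its right end. The Tfdp1 stretch (chr8:13338691-13338731, plus strand) runs from position -60 to -20.
E2f2: gaatttggcggcatatagTTTGGCGCtaa
E2f3: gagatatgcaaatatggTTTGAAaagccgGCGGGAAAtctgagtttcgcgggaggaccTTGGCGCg
E2f7: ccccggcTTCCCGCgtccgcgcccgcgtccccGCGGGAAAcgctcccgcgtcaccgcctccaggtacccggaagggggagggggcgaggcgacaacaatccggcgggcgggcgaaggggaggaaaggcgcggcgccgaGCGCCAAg
E2f8: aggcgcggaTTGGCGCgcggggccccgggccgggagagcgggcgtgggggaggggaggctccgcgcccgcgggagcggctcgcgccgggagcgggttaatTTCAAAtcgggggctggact
Tfdp1: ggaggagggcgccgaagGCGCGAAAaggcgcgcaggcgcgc

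All 10 members had log2 fold changes above 0 in serum over 2i ESCs, with the smallest in E2f6 and the largest in E2f8. Fold changes are given on the log2 scale, as differences of log2(normalized count + 1) of serum over 2i, where a normalized count is a gene's read count divided by a size factor for its library. The median was 1.09 over the 10 genes, 1.71 over the activators, 0.11 over the repressors, 2.21 over the atypical E2Fs and 0.83 over the DP genes, beside 0.0047 over all 13005 genes tested. Of all genes tested 50.3% had a value above 0. In 7 of the 10 members both serum values exceeded both 2i values, against 20.5% of all genes, and in 0 both lay below, against 19.4%. With limma 0 members passed the call, an adjusted p-value (Benjamini-Hochberg) below 0.05 together with a 2-fold difference, against 0% of all genes for the serum and 0.0154% for the 2i direction. By the unadjusted p-value (under 0.05) and the same fold change 5 members were higher in serum ESCs, namely E2f2, E2f3, E2f4, E2f7 and E2f8, against 2.97% of all genes, and 0 in 2i ESCs, against 3.0%. Tests on whole reads called 0 members with edgeR and 2 with DESeq2, E2f3 and E2f8 in the serum direction, which 0.561% of all genes passed (1.37% in the 2i direction). With the replicate number as a block in limma E2f8 was called, against 0.338% of all genes in the serum and 1.22% in the 2i direction. The members' replicates differed by a median of 0.49 in serum and 0.57 in 2i ESCs on the log2 scale.

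**Figure D1:**
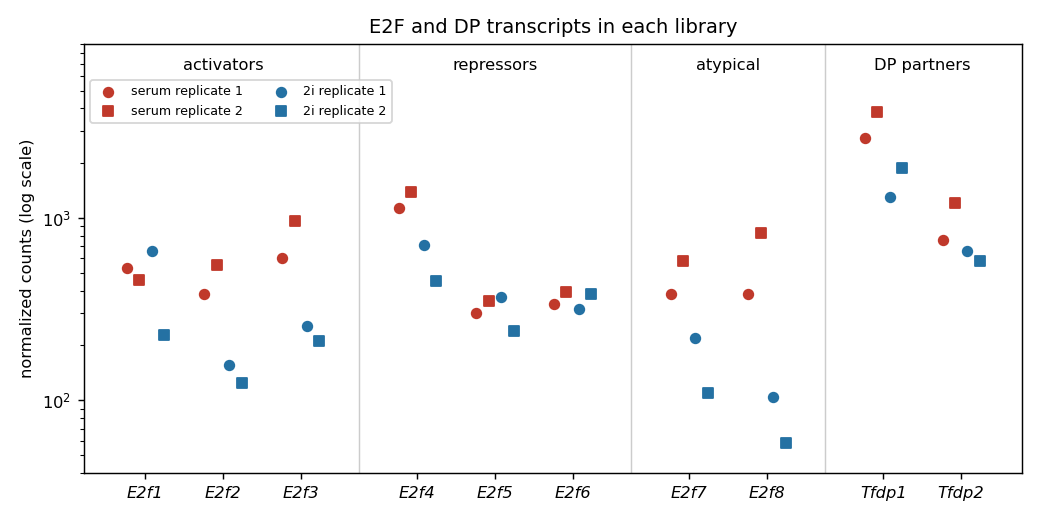
Normalized counts (log axis) of the 10 genes by class, with a red point for each serum library and a blue point for each 2i library (circle, replicate 1; square, replicate 2). Both red points lie above both blue points for 7 genes, and the colours mix for E2f1, E2f5 and E2f6.

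E2f1 (ENSMUSG00000027490, NCBIM37 chromosome 2, 154385143 to 154395628, minus strand), the first E2F described and a potent driver of S-phase entry, had 531 and 457 normalized counts in serum against 658 and 229 in 2i ESCs, given here and below as replicate 1 and then replicate 2. The highest and the lowest value were both from 2i ESCs, so the groups overlapped. Its fold change was 0.34 on the log2 scale (SE 0.61, 95% interval -1.12 to 1.81; limma, adjusted p-value 0.905). Leaving out 2i replicate 2 turned it to -0.42, and leaving out 2i replicate 1 gave 1.10.

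E2f2 (ENSMUSG00000018983, chromosome 4, 135728309 to 135751972, plus strand), which overlaps E2F1 and E2F3 in function, had 385 and 549 normalized counts in serum against 156 and 125 in 2i ESCs. The groups were apart, and the lower serum library was well above the higher 2i library. The log2 fold change was 1.71 (SE 0.49, 95% interval 0.52 to 2.90; limma, adjusted p-value 0.753, unadjusted 0.0121). With DESeq2 on whole reads its adjusted p-value was 0.0620.

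E2f3 (ENSMUSG00000016477, chromosome 13, 29998444 to 30077537, minus strand), which encodes a long and a short protein from separate promoters, had 606 and 959 normalized counts in serum against 255 and 212 in 2i ESCs. The values are per gene, so both forms are added together. The groups were apart, by a log2 fold change of 1.71 (SE 0.48, 95% interval 0.56 to 2.85; limma, adjusted p-value 0.753, unadjusted 0.0103). DESeq2 on whole reads put its adjusted p-value at 0.0450.

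Of the repressors E2f4 alone was higher in both serum libraries. E2f4 (ENSMUSG00000014859, chromosome 8, 107821563 to 107829269, plus strand), the main E2F of RB-family repressor complexes in resting cells, had 1131 and 1393 normalized counts in serum against 714 and 450 in 2i ESCs, with no overlap. Its log2 fold change was 1.14 (SE 0.46, 95% interval 0.03 to 2.26; limma, adjusted p-value 0.753, unadjusted 0.0452). The value was 0.81 without 2i replicate 2 and 0.99 without serum replicate 2, both under a 2-fold difference.

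E2f5 (ENSMUSG00000027552, chromosome 3, 14578671 to 14606308, plus strand), the closest relative of E2F4, had 300 and 349 normalized counts in serum against 371 and 242 in 2i ESCs. The serum values lay between the 2i values. The log2 fold change was 0.11 (SE 0.48, 95% interval -1.05 to 1.28; limma, adjusted p-value 0.966), and -0.19 without 2i replicate 2.

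E2f6 (ENSMUSG00000057469, chromosome 12, 16817771 to 16833549, plus strand), the Polycomb-linked repressor, had 337 and 394 normalized counts in serum against 317 and 381 in 2i ESCs. Replicate 1 was lower than replicate 2 in both conditions, and the conditions overlapped. The log2 fold change was 0.07 (SE 0.45, 95% interval -1.02 to 1.15; limma, adjusted p-value 0.977), the smallest of the 10. These intervals for E2f5 and E2f6 still hold fold changes of 2 in either direction. Under upper quartile scaling, which moved the median of all genes to -0.12, the values of E2f5 and E2f6 were -0.0077 and -0.052, both above that median.

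The largest difference in the family was in an atypical member. E2f8 (ENSMUSG00000046179, chromosome 7, 56121799 to 56136966, minus strand), a repressor of E2F targets that DP does not help to bind DNA, had 381 and 829 normalized counts in serum against 105 and 58.2 in 2i ESCs, resting on 60 whole reads in the lowest library. The groups were apart, although the serum replicates differed more from each other than those of any other member. The log2 fold change was 2.83, or 7.12-fold (SE 0.62, 95% interval 1.33 to 4.33; limma, adjusted p-value 0.753, unadjusted 0.00332). With DESeq2 on whole reads the adjusted p-value was 0.00599. Leaving out each library in turn gave fold changes from 2.27 to 3.39. Of its 5447 exon bases 274 overlap exons of Gm2788 on the other strand, and reads there cannot be assigned if counting did not use strand.

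E2f7 (ENSMUSG00000020185, chromosome 10, 110182495 to 110224440, plus strand), which works with E2F8, had 381 and 580 normalized counts in serum against 220 and 110 in 2i ESCs. The groups were apart, with the 2i replicates 0.999 apart on the log2 scale. The log2 fold change was 1.59 (SE 0.56, 95% interval 0.23 to 2.95; limma, adjusted p-value 0.753, unadjusted 0.0281). It ranged from 1.09 to 2.09 when each library was left out in turn.

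Tfdp1 (ENSMUSG00000038482, chromosome 8, 13338751 to 13378395, plus strand), which encodes the main DP partner, had 2730 and 3795 normalized counts in serum against 1308 and 1891 in 2i ESCs. The groups were apart by a log2 fold change of 1.03 (SE 0.47, 95% interval -0.09 to 2.15; limma, adjusted p-value 0.753). Tfdp2 (ENSMUSG00000032411, chromosome 9, 96096694 to 96224065, plus strand), the second partner, had 760 and 1207 normalized counts in serum against 656 and 578 in 2i ESCs. Its groups were apart too, but by less than the gap between the serum replicates, with a log2 fold change of 0.64 (SE 0.46, 95% interval -0.47 to 1.74; limma, adjusted p-value 0.763).

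**Figure D2:**
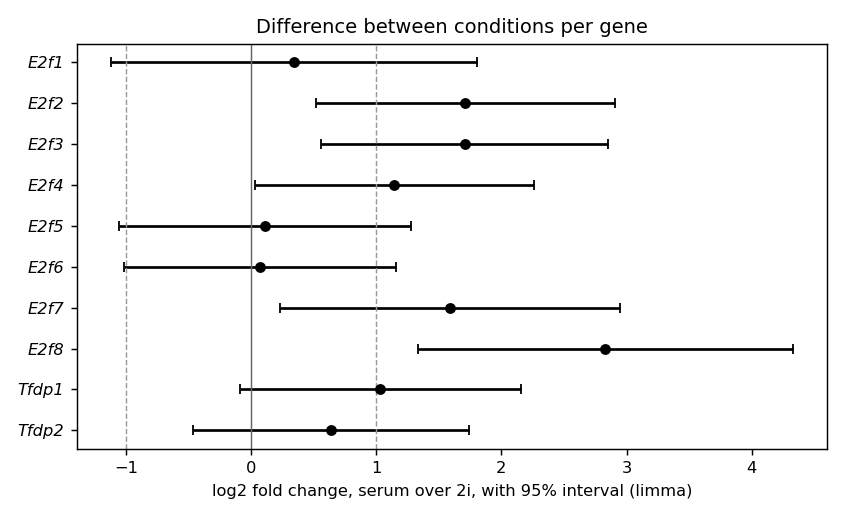
Log2 fold change of each gene in serum over 2i ESCs (point) with its 95% interval from limma (bar), from 2 libraries per condition. Dashed lines mark a 2-fold difference, and the intervals of E2f2, E2f3, E2f4, E2f7 and E2f8 lie above 0 while only that of E2f8 lies above a log2 value of 1.

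Levels can be compared between genes only per length, so normalized counts were divided by the kilobases (kb) of merged exons. Tfdp1 had the highest level in each condition, with 1283 ± 296 per kb in serum and 629 ± 162 in 2i ESCs (SD, n = 2). E2f4 was the second, with 633 ± 93.1 per kb in serum and 292 ± 93.8 in 2i ESCs (SD, n = 2), and E2f5 the third, with 186 ± 19.7 and 175 ± 52.2 (SD, n = 2). In both conditions the libraries of these 3 genes did not overlap between Tfdp1 and E2f4 nor between E2f4 and E2f5. Below them, in serum ESCs, came E2f3, E2f1, E2f6, Tfdp2, E2f8, E2f2 and E2f7, and each neighbouring pair from E2f5 down to E2f2 overlapped. In 2i ESCs the order was E2f6, E2f1, Tfdp2, E2f3, E2f2, E2f7 and E2f8. There E2f5, E2f6, E2f1 and Tfdp2 overlapped with their neighbours, E2f3 and E2f2 stood apart from theirs, and E2f7 and E2f8 overlapped with each other. E2f3 was thus 4th in serum and 7th in 2i ESCs, at 163 ± 52.1 and 48.8 ± 6.33 per kb (SD, n = 2). E2f8 was 8th and 10th, at 111 ± 58.1 and 15.0 ± 6.06 per kb (SD, n = 2).

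Ratios within a library do not depend on the scaling between libraries. The summed level per kb of the activators over that of the repressors was 0.426 and 0.432 in the serum libraries against 0.420 and 0.274 in the 2i libraries. The first 2i library was thus close to the serum libraries and the second below them. The mean difference was 0.34 on the log2 scale, and lay between 0.031 without 2i replicate 2 and 0.65 without 2i replicate 1. On normalized counts not divided by length it was 0.49. E2f1 took 20.1% of the summed E2f1 to E2f8 level in 2i replicate 1 and from 8.35% to 12.4% in the other libraries.

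The atypical E2Fs over the repressors gave 0.128 and 0.205 in serum and 0.0624 and 0.0440 in 2i ESCs. Both serum libraries were above both 2i libraries, with a mean difference of 1.63 on the log2 scale that lay between 1.29 and 1.96 without single libraries. On normalized counts not divided by length it was 1.49. The atypical E2Fs over the activators gave 0.300 and 0.474 in serum and 0.149 and 0.1604 in 2i ESCs, again with the conditions apart. This mean difference was 1.29 on the log2 scale, and 0.998 on normalized counts not divided by length. Tfdp1 over Tfdp2 was 10.54 and 9.22 in serum and 5.85 and 9.60 in 2i ESCs, which overlapped. With 2 libraries against 2 an exact two-sided permutation test cannot give a p-value below 0.3333, so these ratios carry no test.

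**Figure D3:**
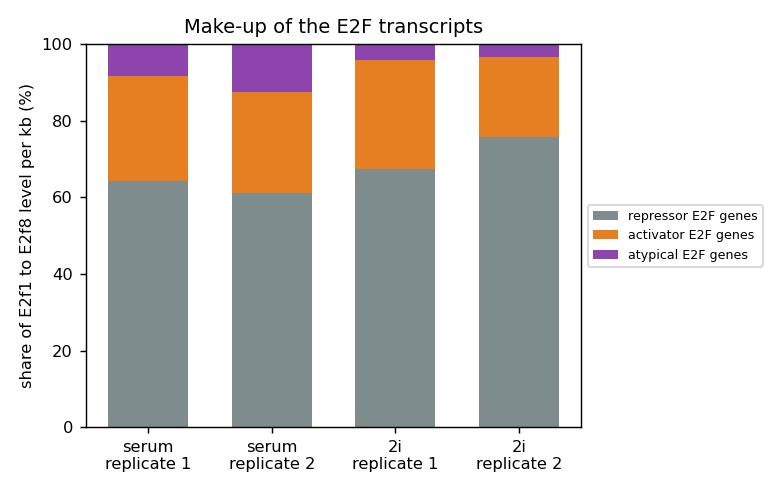
Share (%) of the summed E2f1 to E2f8 level per kb held by the repressor (E2f4 to E2f6), activator (E2f1 to E2f3) and atypical (E2f7, E2f8) genes in each of the 4 libraries. The atypical genes take 8.24% and 12.5% in serum and 4.21% and 3.34% in 2i ESCs, and the repressors take most in every library. Merged exons of E2f7 and E2f8 (9009 and 5447 bases) are longer than their longest transcripts (5473 and 3691), which lowers the atypical share.

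Genes around the family in the RB pathway were read from lists, in the same fit. G1 cyclins and their CDKs act upstream of RB. The list of 9 such genes also held Ccna2, a cyclin gene of S-phase and G2-phase. The list had a median log2 fold change of 0.80, with 0 past the adjusted threshold in either direction. In 5 of the 9 both serum values exceeded both 2i values, and in 0 both lay below, against 20.5% and 19.4% of all genes. When p-values were not adjusted (under 0.05), 3 genes (Ccnd2, Ccne1 and Ccna2) were higher in serum ESCs by at least 2-fold, against 2.97% of all genes. The highest was Ccnd2, a D-type cyclin, at 2.88 (SE 0.71; limma, adjusted p-value 0.753), and the lowest Ccnd3 at -0.0072 (SE 0.53; limma, adjusted p-value 0.998). The CDK inhibitors, 6 of 7 tested, had a median of -0.50 with 0 past either threshold. Both serum values exceeded both 2i values in 0 of these 6 and lay below them in 1. They ran from Cdkn1b, which encodes P27, at 0.05 (SE 0.45) to Cdkn2d at -3.51 (SE 1.83), which differed most between the serum replicates, at 1.001 and 97.2 normalized counts.

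The MuvB complex joins E2F4 and pocket proteins in repressor complexes. The list of 9 genes for these also held Mybl2, which encodes neither a pocket protein nor a MuvB subunit. The list had a median of 0.33 and 0 past either threshold. In 2 of the 9 both serum values exceeded both 2i values, and in 1 both lay below, against 20.5% and 19.4% of all genes. Lin9 was highest at 0.80 (SE 0.44) and Rbl1, which encodes P107, lowest at -0.23 (SE 0.46). The 11 partners of E2F6 in its Polycomb complex had a median of 0.66, again with 0 past either threshold. In 7 of these 11 both serum values exceeded both 2i values, and in 1 both lay below, against 20.5% and 19.4% of all genes. They ran from Max at 1.17 (SE 0.59), with 928 and 1109 normalized counts in serum against 742 and 272 in 2i ESCs, to the H3K9 methyltransferase gene Ehmt2 at -0.80 (SE 0.65).

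The 36 textbook E2F targets at the G1/S border had a median of 0.69, 34 values above 0, and 20 genes with both serum values above both 2i values. None passed the adjusted threshold (limma), and 4 passed the unadjusted one, all higher in serum ESCs, among them Cdc6, Rrm2 and Ezh2. Over all genes 50.3% had values above 0, 20.5% had both serum values above both 2i values and 2.97% passed the unadjusted threshold in this direction. Rrm2, a subunit of ribonucleotide reductase, was the highest at 1.83 (SE 0.52), with 5959 and 8917 normalized counts in serum against 2691 and 1567 in 2i ESCs. Pola1, the DNA polymerase alpha gene, was the lowest at -0.63 (SE 0.83), since 2i replicate 1 held 14732 normalized counts against 2757 to 5145 in the other libraries.

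The G2/M genes, most abundant late in the cell cycle, were higher in the same libraries. The median over these 24 genes was 1.60, above that of the E2F and DP genes. In 21 of the 24 both serum values exceeded both 2i values, against 20.5% of all genes. In the unadjusted test 16 were higher in serum ESCs, against 2.97% of all genes, and 0 passed the adjusted one (limma), against 0%. Their summed level was 51941 and 72253 normalized counts in serum against 27830 and 20260 in 2i ESCs. Hmmr, a spindle gene, was highest at 2.48 (SE 0.53) and Cdc25b lowest at -0.20 (SE 0.53). The order of the 4 libraries in this sum, with serum replicate 2 highest and 2i replicate 2 lowest, was also that of E2f2, E2f3, E2f4, E2f7, E2f8 and Tfdp2. E2f1, E2f5, E2f6 and Tfdp1 had other orders, and the share of all genes with this order was not counted. The part of cells outside G1-phase in these values was not tested.

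**Figure D4:**
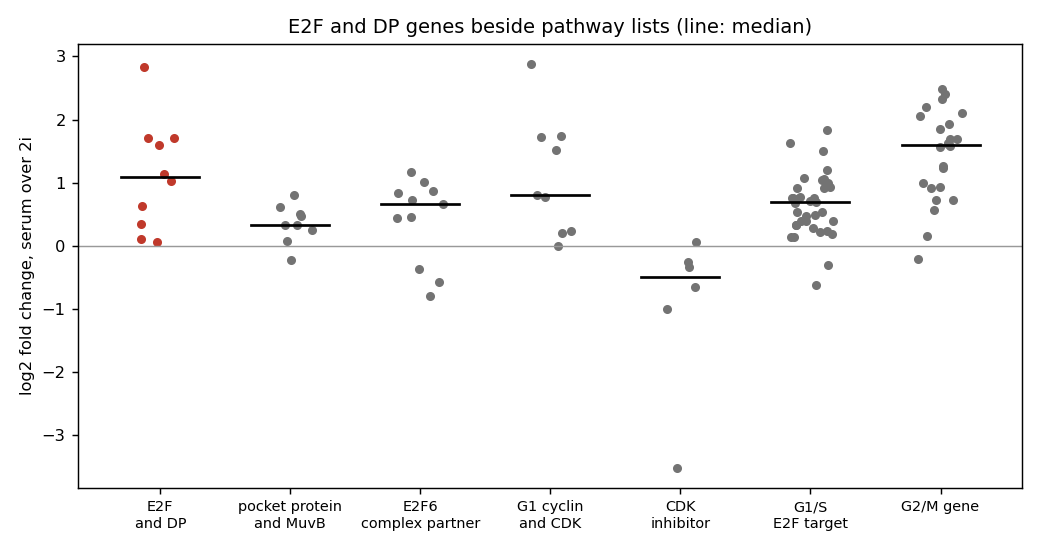
Log2 fold change in serum over 2i ESCs of each E2F and DP gene (red) and each gene of 6 pathway lists (grey), with the median of each list as a line. The medians are 1.09 for the E2F and DP genes, 0.69 for the G1/S targets and 1.60 for the G2/M genes.

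The profile of the family mean over the 4 libraries was also matched to other genes, by the Euclidean distance between log2 values centred per gene. Among 11806 protein-coding genes the nearest were Luzp1 (distance 0.019), E330016A19Rik (0.089), Ythdf1 (0.11), 4933427I04Rik (0.11) and F630043A04Rik (0.11), against a median distance of 1.503. Luzp1 had 1823 and 2547 normalized counts in serum against 1167 and 849 in 2i ESCs. With only 4 libraries such likeness is a description of these libraries.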

How the data were processed

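Sorted late G1-phase ESCs gave 4 libraries of rRNA-depleted total RNA, primed at random and read as single 43-base reads. The authors aligned them to mm9 with Bowtie, estimated gene counts with MMSeq and scaled them with DESeq2 (versions not given in the sources used here). The deposited values are a signal, gene counts divided by a size factor per library. All values (100%) were whole multiples of a step per library (tolerance 0.1), and were read as whole reads. The step of serum replicate 1 (1.0005) is so near 1 that it is hard to tell from rounding, which limits the tests on whole reads. GENCODE vM1 (NCBIM37, the same build) named 14462 of 14533 genes. At least 98.5% of the 43-base words of each member occurred in no other coding gene.

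The 13005 genes averaging 50 or more normalized counts in one of the conditions were fitted with limma 3.58.1 (R 4.3.3), with a variance trend, on log2 values after adding 1, and called at a Benjamini-Hochberg adjusted p-value under 0.05 over all genes and a 2-fold change. The fit was also run on simulated counts of independent libraries. Their spread was set lower than that of these libraries, so that run does not show how the fit performs here. RefSeq promoter windows were placed on NCBIM37 by an exact match of their sequence. Because the values were scaled, edgeR 4.0.16 and DESeq2 1.42.0 on whole reads were alternatives, as were other pseudocounts, filters and scalings, a replicate block, no trend and leaving out each library. A GC content and length correction (mgcv 1.9.3) and leaving out libraries from the ratios were added after the data were seen. All members were named, and from each list the gene at each end and those past the call threshold, with the 5 genes nearest to the family mean. List genes named for an unadjusted p-value, and the markers Pou5f1, Nanog and Sox17, were picked after their values were seen, and 1 item is not reported here. Members and lists were chosen with earlier results of these data known.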

Additional observations from a re-analysis of the deposited data

How the results depend on the processing

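The family median stayed between 0.89 and 1.29 under every alternative run, and the fold changes of E2f2, E2f3, E2f4, E2f7, E2f8, Tfdp1 and Tfdp2 stayed above 0. The lowest of these was 0.25 for Tfdp2 after GC content and length correction, against 0.64 as reported. Without single libraries the activator median lay between 1.38 and 1.97 and the repressor median between 0.0045 and 0.42. The sign of the smallest values turned, for E2f1 to -0.42 without 2i replicate 2 (1.10 without 2i replicate 1), for E2f5 to -0.0077 under upper quartile scaling, to -0.19 without 2i replicate 2 and to -0.0076 after GC content and length correction with and without the replicate block, and for E2f6 to -0.052 under upper quartile scaling, -0.043 without serum replicate 2 and -0.065 without 2i replicate 1 (0.20 without 2i replicate 2). The cause was not tested. Leaving a condition with 1 library assumes that it varies like the other.

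Calls depended on the test. Over all genes, 0 were higher in serum and 2 in 2i ESCs as reported, against 73 and 178 with DESeq2, 64 and 249 with DESeq2 and the replicate block, 386 and 390 without adjustment, and 0 and 0 with edgeR or after GC content and length correction with and without the block. The 2i count was 4 with a mean of at least 200, 1 without trend, and between 0 and 0 without single libraries. Members called higher in serum ESCs were 2 with DESeq2 (E2f3, E2f8), 1 with DESeq2 and the block (E2f8) and 5 without adjustment, and genes of the 5 pathway lists other than G2/M were 3, 3 and 7. These lists hold 9 pocket protein and MuvB genes, 11 E2F6 partners, 9 G1 cyclins and CDKs, 7 CDK inhibitors and 36 G1/S targets. In the serum direction 0.561% of all genes passed with DESeq2 and 2.97% without adjustment. Both conditions have replicate numbers 1 and 2. Their replicate differences correlated with r = 0.480 across all genes tested and r = 0.291 across those with a coding transcript sequence. But 2 pairs are too few to show that equal numbers mark a shared culture. With the replicate block in limma 44 genes were higher in serum and 159 in 2i ESCs, with E2f8 as the 1 member (adjusted p-value 0.0148) and 1 gene of the pathway lists. With 2 libraries per condition even the 7.12-fold difference of E2f8 did not pass the adjusted threshold in limma.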
